A study of Homo sapiens with 12 samples.

Results

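Combination-only regions at gene ends are stretches of chromatin listed after treatment with OSU-ERb-12 and enzalutamide together but listed for neither agent alone. A combination region was taken if it overlapped no region of either single-agent list by 1 bp or more and lay within 1 kb of either end of a protein-coding gene. This gave 517 regions of the 6248 in the combination list (8.27%), out of 4698 combination-only regions (11.0%; exact 95% interval 10.1 to 11.9). The 3 deposited lists together held 49496 regions. Both parts of the rule use the listed positions, so these counts describe the choice and were not tested.

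The regions come from ATAC-seq, which maps DNA that a transposase can reach, in the human prostate cancer cell line 22Rv1. All samples are of this single line, and the labels give the genotype as WT throughout. The groups were OSU-ERb-12 plus enzalutamide for 6 h with no dose given for the combination itself, enzalutamide at 1 µM for 6 h, OSU-ERb-12 at 100 nM for 6 h, and vehicle, with 3 samples each. The deposited lists hold positions alone, so there is no value per sample, no depth and no replicate error. The names of all 3 lists carry the tag neg, which no source used here defines. The lists may thus hold changes in 1 direction only, and no direction relative to vehicle was assigned. The 3 lists are taken to share the vehicle group.

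Gene starts in active chromatin are kept open by transcription factors and the polymerase machinery, and many of them lie in CpG-rich DNA. Enzalutamide is an antiandrogen used in prostate cancer, whereas OSU-ERb-12 binds oestrogen receptor beta. Steroid hormone receptors are known to act largely from enhancers distant from gene starts.

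Promoter windows that combination-only regions overlapped in whole or in part are shown here to give the DNA at these starts and the motifs in it. Each window runs from 250 bases before to 50 bases after a RefSeq start (GRCh38.p14), is read along the gene, and has capitals at each CCAAT, the box bound by NFY, and each CCGGAAGT, a site form bound by ETS factors, on either strand. CHEK2 shows a window with several CCAAT boxes, SND1 both motifs, WDR48 an ETS site alone, HSPA5 the most CCAAT of these 5, and KLF2 neither. CHEK2, SND1 and WDR48 were among the 8 windows with the largest overlap. These 5 were picked after their letters were seen.
CHEK2, chr22:28741771-28742070, minus strand: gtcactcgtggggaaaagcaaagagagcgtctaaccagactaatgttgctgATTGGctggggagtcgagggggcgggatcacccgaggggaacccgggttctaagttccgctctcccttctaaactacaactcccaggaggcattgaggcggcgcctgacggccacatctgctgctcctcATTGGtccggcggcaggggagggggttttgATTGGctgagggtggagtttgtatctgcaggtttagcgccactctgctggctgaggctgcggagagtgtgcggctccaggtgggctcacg
SND1, chr7:127651944-127652243, plus strand: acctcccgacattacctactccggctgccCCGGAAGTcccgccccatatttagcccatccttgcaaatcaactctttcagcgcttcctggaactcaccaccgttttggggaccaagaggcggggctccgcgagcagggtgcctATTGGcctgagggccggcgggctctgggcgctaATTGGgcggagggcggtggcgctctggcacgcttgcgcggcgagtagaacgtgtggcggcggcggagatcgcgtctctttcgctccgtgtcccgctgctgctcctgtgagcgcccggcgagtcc
WDR48, chr3:39051766-39052065, plus strand: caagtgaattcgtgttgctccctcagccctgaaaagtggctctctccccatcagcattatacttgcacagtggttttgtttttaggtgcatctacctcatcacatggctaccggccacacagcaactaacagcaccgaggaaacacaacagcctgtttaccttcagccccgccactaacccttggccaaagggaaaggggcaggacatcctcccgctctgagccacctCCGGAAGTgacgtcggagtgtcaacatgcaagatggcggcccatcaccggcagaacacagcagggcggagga
HSPA5, chr9:125241294-125241593, minus strand: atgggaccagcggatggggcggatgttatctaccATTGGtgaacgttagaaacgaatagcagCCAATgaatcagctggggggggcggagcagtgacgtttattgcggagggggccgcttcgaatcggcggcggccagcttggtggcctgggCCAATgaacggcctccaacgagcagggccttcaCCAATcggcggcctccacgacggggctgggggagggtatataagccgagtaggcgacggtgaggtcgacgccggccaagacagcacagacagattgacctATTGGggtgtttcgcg
KLF2, chr19:16324576-16324875, plus strand: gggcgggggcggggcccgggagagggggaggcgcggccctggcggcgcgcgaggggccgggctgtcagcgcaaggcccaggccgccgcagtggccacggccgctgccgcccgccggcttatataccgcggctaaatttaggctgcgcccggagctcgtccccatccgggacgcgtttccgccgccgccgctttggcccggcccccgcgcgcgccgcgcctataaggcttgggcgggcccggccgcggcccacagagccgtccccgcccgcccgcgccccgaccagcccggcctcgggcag

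The combination-only regions lay over 280 of the 300 bases of the CHEK2 window, 293 of SND1, all 300 of WDR48, 250 of HSPA5 and 175 of KLF2. CHEK2 encodes a DNA damage checkpoint kinase, and its region at chr22:28741701-28742050 also covered the start of HSCB, an iron-sulfur cluster cochaperone gene read in the other direction. SND1 encodes a nuclease and coactivator, and WDR48 a cofactor of ubiquitin proteases whose start faces that of the sodium channel gene SCN11A at a distance of 72 bp. CCAAT matched 3 times in the CHEK2 window and 2 times in SND1, all inside the listed region. In the HSPA5 window it matched 5 times, of which 4 lay inside the region, since 50 bases of this window lie outside it. CCGGAAGT matched once each in SND1 and WDR48.

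The members were narrow. Of the 517, 359 were 200 bp wide (69.4%), the shortest width in the list, 86 were 250 bp and 46 were 300 bp. At gene ends, 67.4% of OSU-ERb-12-only regions, 44.6% of enzalutamide-only regions and 57.7% of combination regions shared with enzalutamide were 200 bp wide. Together the members covered 117.6 kb. The widest was an 800 bp region at chr3:112562001-112562800, 39 bp from the start of ATG3, the enzyme gene that attaches LC3 to lipid during autophagy. The next were 600 bp on chromosome 3, 834 bp inside the outermost boundary of APEH and 821 bp beyond the far end of BSN, and 550 bp at the far end of ATG2A, a lipid transfer gene of autophagy. The 600 bp region covered a RefSeq start of APEH that lies within the gene, since distances here are to the outermost gene boundaries and some genes have further starts inside them. The rule keeps all distances to a gene end within 1 kb, and the median was 219 bp. Among regions chosen by the same window it was 269 bp for enzalutamide-only and 411 bp for OSU-ERb-12-only regions. For combination regions shared with enzalutamide it was 199 bp. The end itself was covered by 99 members (19.1%), against 18.1% of enzalutamide-only, 8.97% of OSU-ERb-12-only and 20.6% of shared regions.

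At the 1 kb threshold, the members just inside were a region 1000 bp from the far end of SH3TC2 and another 997 bp from an end of PPP1R42. The combination-only regions just outside lay 1002 bp from the far end of CLPTM1L and 1005 bp from an end of RHPN1.

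Gene starts were the nearer end for most members, and the rule did not use the side of the gene directly. Strand was known from the RefSeq promoter table for 15843 of 20037 protein-coding genes (79.1%), and the nearest end could be called for 415 members. Of these, 301 were nearest to a gene start (72.5%; exact 95% interval 68.0 to 76.8) and 114 to a far end (27.5%). For the other 102 the gene had no strand in the table or a start and a far end were tied. Among these were all 26 members on chromosome 8, so this chromosome adds none to the members' share at starts.

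The share at starts lay between those of the single-agent lists. Regions listed for enzalutamide alone were nearest to a start in 3529 of 4062 cases (86.9%; 85.8 to 87.9), and those listed for OSU-ERb-12 alone in 474 of 764 (62.0%; 58.5 to 65.5). The odds of lying at a start were 0.399 times those of enzalutamide-only regions (Fisher's exact test, two-sided, Benjamini-Hochberg adjusted p = 8.33e-13 over 2 comparisons). Against OSU-ERb-12-only regions the odds ratio was 1.62 (Fisher's exact test, adjusted p = 0.000315), but with a window of 5 kb it was 1.16 (Fisher's exact test, adjusted p = 0.0774). Regions are not replicates and neighbouring regions are not independent, so these p-values describe the lists and not the treatments. The combination regions that overlapped an enzalutamide region, which the rule leaves out, had 288 of 326 at starts (88.3%; 84.4 to 91.6). Leaving these out lowers the share at starts among the members and with it both odds ratios, so these values depend in part on the rule. It widens the difference from enzalutamide-only regions and narrows the difference from OSU-ERb-12-only regions. When single-agent regions within 500 bp counted as shared, the share at starts was 68.5%.

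**Figure D1:**
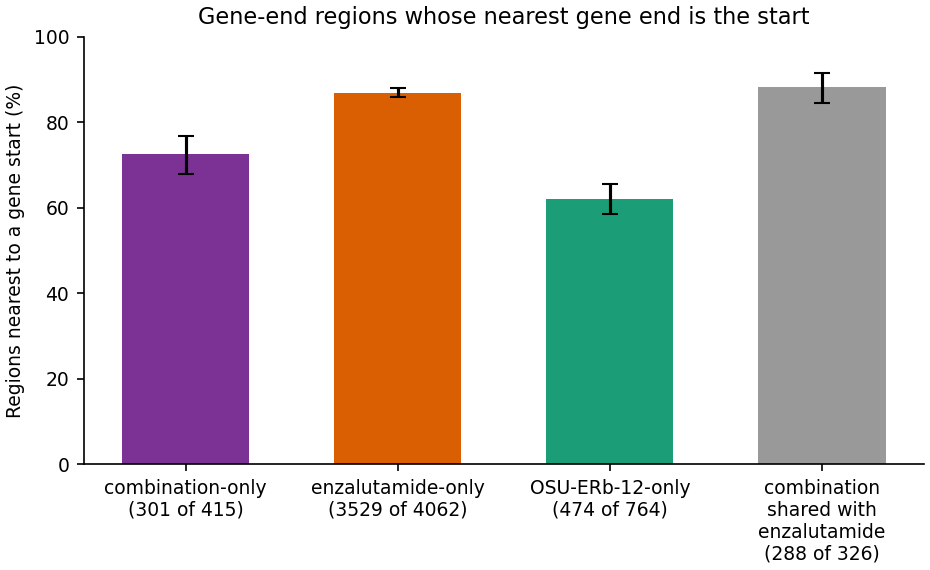
Percentage of gene-end regions whose nearest gene end is the start, for regions listed in the combination alone, enzalutamide alone, OSU-ERb-12 alone, and combination regions shared with enzalutamide. Bars are shares of the regions with a known side, error bars are exact 95% intervals of counting, and the combination-only bar (72.5%) stands between enzalutamide-only (86.9%) and OSU-ERb-12-only (62.0%).

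Combination-only regions on the start side were mostly centred close to the start. The median region centre was 18 bp into the gene, with quartiles of -230 and 306 bp, negative being upstream. For enzalutamide-only regions the median was 188 bp into the gene and for OSU-ERb-12-only regions 164 bp. Centres within 300 bp of the start made up 171 of 301 combination-only regions (56.8%; 51.0 to 62.5), against 38.7% of enzalutamide-only regions (37.1 to 40.3) and 27.6% of OSU-ERb-12-only regions (23.7 to 31.9). The combination regions shared with enzalutamide had 152 of 288 (52.8%; 46.8 to 58.7). These intervals cover counting only, and no test was planned for this distance. Centres lay upstream of the start in 144 of the 301 members (47.8%).

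**Figure D2:**
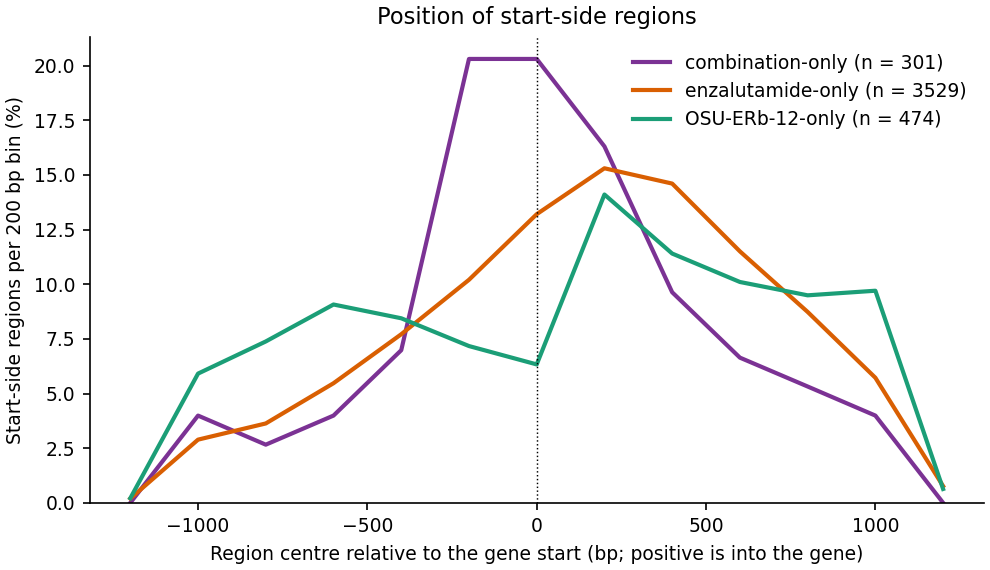
Position of region centres relative to the nearest gene start (x axis, bp, positive into the gene) as a percentage of start-side regions per 200 bp bin (y axis), for combination-only (301 regions), enzalutamide-only (3529) and OSU-ERb-12-only regions (474). The combination-only line has its highest bins just upstream of and on the start, with 20.3% each, while the other lines are highest in the bin centred 200 bp into the gene, with 15.3% and 14.1%.

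The far-end members divided equally, with 57 of 114 centred inside the gene and 57 beyond its far end. Counting all members, 292 of 517 (56.5%) had their centre in the body of a protein-coding gene. The annotation used gives gene extents without exons, so exons and introns were not separated. A lncRNA gene also ended within 1 kb of 91 members (17.6%), and a miRNA gene within 1 kb of 4. At JUND the member overlapped an end of MIR3188, so its position is not that of JUND alone.

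Promoter windows under the members were rich in CpG. Combination-only regions overlapped 174 windows of 161 protein-coding genes, with a median GC content of 66.7% and a median of 27 CpG in 300 bases. The corresponding medians were 67.3% and 28 for 1564 windows under enzalutamide-only regions, 60.3% and 19 for 117 windows under OSU-ERb-12-only regions, and 62.3% and 21 for all 22183 windows of protein-coding genes. Windows of the same gene, or of facing genes, share letters.

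Each of 16 motifs was searched on both strands. CCAAT was present in 78 of the 174 windows (44.8%; exact 95% interval 37.3 to 52.5), in 31.6% of windows under enzalutamide-only regions (29.3 to 34.0), in 38.5% under OSU-ERb-12-only regions (29.6 to 47.9) and in 34.7% of all windows. CCGGAAGT was present in 21 of 174 (12.1%; 7.63 to 17.9), against 6.71% (5.52 to 8.07), 11.1% (6.05 to 18.3) and 5.34% in the same sets. TGTTTAC, a site form bound by FOXA factors, was in 9 of 174 (5.17%; 2.39 to 9.59), against 2.05% (1.40 to 2.88), 3.42% (0.939 to 8.52) and 2.85%. These windows were overlapped by 1 bp or more, and a match lay wholly inside the listed region in 40 of the 78 windows with CCAAT and in 12 of the 21 with CCGGAAGT. No test was made of these shares, and the motifs singled out here were chosen after their values were seen.

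GGGCGG, the GC box bound by SP1, was in 70.7% of windows under the members, 74.4% under enzalutamide-only regions, 60.7% under OSU-ERb-12-only regions and 56.3% of all windows. TATAAA was in 3 of 174 (1.72%; 0.357 to 4.96), 5.18%, 9.40% and 9.47%. The full palindromic androgen response element was in 0 of the 174 windows and 0 of all 22183, and the full oestrogen response element in 0 of 174 and 8 of all. The shorter AGAACA, an arm of the first, and AGGTCA, which overlaps an arm of the second, were in 9.20% and 8.05% of windows under the members, against 11.7% and 11.9% of all windows. A match is a run of letters and not a bound site, and no match says only that the letters are not in the window.

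A combination-only region lay within 1 kb of an end of 605 protein-coding genes, which is 3.02% of all 20037. This share is the background for the gene groups that follow. Any region of the combination list, shared or not, lay at an end of 5.51% of genes. Of the 605 genes, 601 had 1 member and 4 had 2 members. In 20 gene lists drawn up for prostate cancer and stress biology, 39 of 674 distinct genes had a member (5.79%). The lists were described by counts and not tested, and their genes were chosen with earlier results of these data known.

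AP-1 and immediate early genes had the highest share, with 6 of 24 (25.0%). This list, called immediate early for short, joins AP-1 subunit genes with genes that cells switch on within minutes of a stimulus. At KLF2, a Krüppel-like factor gene, the member at chr19:16324701-16324900 covered the start. JUND, an AP-1 subunit gene, had its member 479 bp upstream of the start at chr19:18282101-18282300. At FOS, another AP-1 subunit gene, the region at chr14:75281201-75281400 lay inside the gene, 830 bp before its far end. The members of EGR1, a growth-factor-induced zinc finger gene, KLF4, and the orphan nuclear receptor gene NR4A1 lay beyond the far end, at 448, 302 and 648 bp.

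Single-agent regions were close to several of these genes. EGR1 had 3 enzalutamide regions within 1 kb of its ends, FOS and JUND 2 each and KLF2 1, while KLF4 and NR4A1 had none. OSU-ERb-12 regions at the ends of these genes numbered 1 at KLF2 and 0 at the others. The gap to the nearest enzalutamide region was 200 bp at EGR1, 300 bp at KLF2, 500 bp at JUND and 1450 bp at FOS, but 18000 bp at KLF4 and 18350 bp at NR4A1. When a single-agent region within 500 bp counted as shared, 3 of the 24 genes remained in the count. Over the whole immediate early list, 11 of 24 genes had an enzalutamide region at an end, where 28.3% of all genes did, and 3 had an OSU-ERb-12 region, where 7.88% did.

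**Figure D3:**
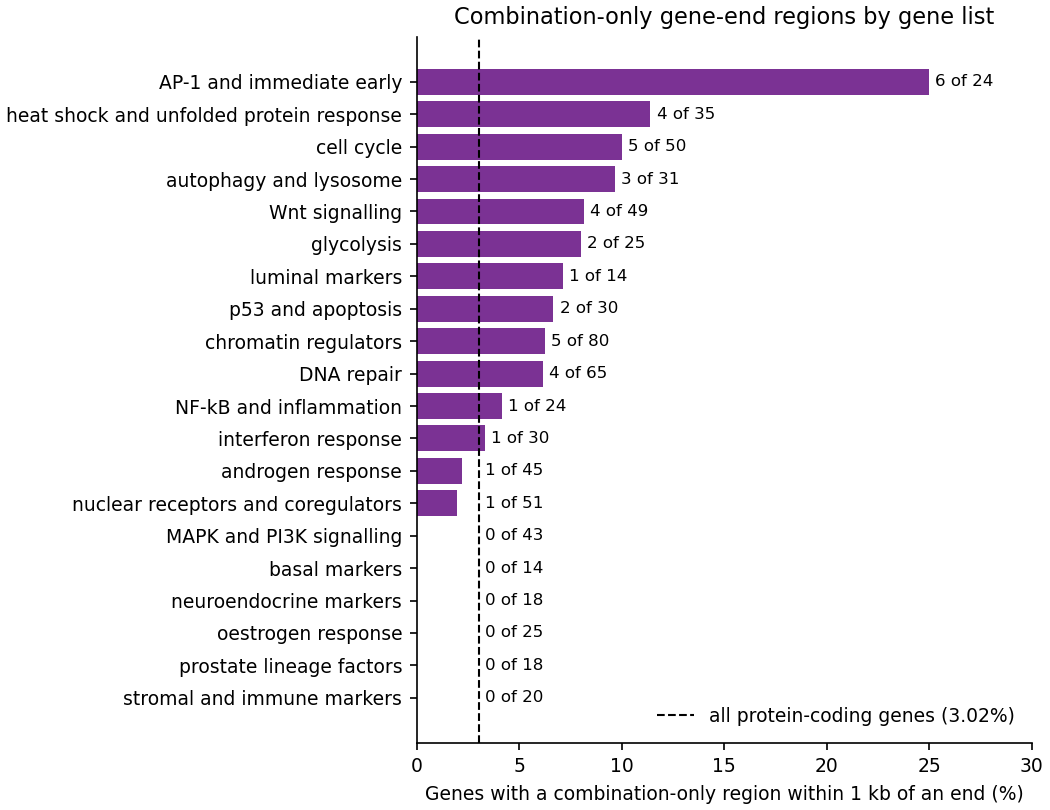
Percentage of genes in each of 20 gene lists with a combination-only region within 1 kb of a gene end, with the number of genes beside each bar and the share of all protein-coding genes (3.02%) as a dashed line. AP-1 and immediate early genes stand highest with 6 of 24, and 6 lists, among them oestrogen response genes and prostate lineage factors, have none.

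Protein folding genes had members at 4 of 35 (11.4%), each near a gene start where strand was known. The region at chr9:125241301-125241550 covered the start of HSPA5, which encodes BiP, the main chaperone of the endoplasmic reticulum and the sensor partner of the unfolded protein response. DNAJB9, an HSPA5 cochaperone gene, had its member 124 bp upstream of the start, and the start of THAP5 faces it at 106 bp. DNAJA1, a cytosolic cochaperone gene, had its member 73 bp upstream, and PDIA3, a disulfide isomerase gene, had a member 13 bp from an end. The DNAJA1 member covered the start of another gene, APTX. HSPA5 and DNAJB9 each had 2 enzalutamide regions at their ends, at gaps of 200 and 100 bp, and DNAJB9 also had an OSU-ERb-12 region. DNAJA1 and PDIA3 had no single-agent region at their ends, like 67.9% of all protein-coding genes. Among chaperonin and J protein genes the count was 4 of 55 (7.27%), which again includes DNAJA1 and DNAJB9. The others were CCT3 and DNAJC4, with members 59 and 32 bp upstream of the start. The DNAJC4 member also covered the far end of NUDT22.

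Cell cycle genes had members at 5 of 50 (10.0%). The member of CHEK2 covered its start. CDC6 and CDT1, which load the replicative helicase onto DNA, had members 79 and 789 bp upstream of their starts. SKP1, the adaptor of SCF ubiquitin ligases, had a member 251 bp upstream, and CDC25B, a phosphatase that activates cyclin-dependent kinases, had its member 36 bp beyond the far end. CHEK2 had an enzalutamide region at a gap of 50 bp. The other 4 had no single-agent region at their ends, where 67.9% of all protein-coding genes had none. DNA repair genes had members at 4 of 65 (6.15%). Among these was ERCC4, a nuclease subunit gene of nucleotide excision repair (54 bp upstream). XRCC6, which encodes Ku70, had a member 445 bp upstream, touching an enzalutamide region. The XRCC6 member lay nearer to another gene, DESI1, 193 bp inside its start. The DNA polymerase gene POLL had its member 319 bp from the far end, inside the gene.

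Chromatin regulator genes had members at 5 of 80 (6.25%). KDM5C, an H3K4 demethylase gene, had its member 57 bp inside the start, and EZH1, a Polycomb methyltransferase gene, 490 bp inside the start. KMT2A, an H3K4 methyltransferase gene, and KDM6B, an H3K27 demethylase gene, had members 419 and 805 bp beyond the far end, and NSD3 had a member 297 bp from an end. The KMT2A member covered an end of another gene, TTC36, and the KDM6B member also lay 299 bp from an end of TMEM88. All 5 had an enzalutamide region at an end, as did 38 of the 80 genes and 28.3% of all protein-coding genes. This was not always near the member, since the gap was 44350 bp at NSD3 and 79800 bp at KMT2A. EZH1 had 2 OSU-ERb-12 regions at its ends and KMT2A 1. The EZH1 member touched an enzalutamide region with no base between them.

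Wnt signalling genes had members at 4 of 49 (8.16%). The member of AXIN1, a scaffold of the beta-catenin destruction complex, covered its start at chr16:352701-352950. WNT5B, a ligand gene, had a member 239 bp beyond its far end, and KREMEN2, a receptor gene for Wnt antagonists, 975 bp from an end. LEF1, a transcription factor gene of the pathway, had a member 982 bp inside its start. The LEF1 member covered the start of another gene, LOC124900752. Autophagy and lysosome genes had members at 3 of 31 (9.68%), namely ATG3, ATG2A and CTSL, a lysosomal protease gene with its member 232 bp inside the start. Glycolysis genes had 2 of 25 (8.0%), both beyond the far end, at 81 bp for ALDOA and 553 bp for TPI1. Of the p53 and apoptosis genes 2 of 30 (6.67%) had a member near the far end, 49 bp inside BCL2L1, which encodes BCL-XL, and 209 bp beyond SESN1, a stress sensor gene. No single-agent region lay within 1 kb of the ends of ALDOA, TPI1, BCL2L1 or SESN1, which was so for 67.9% of all protein-coding genes.

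Lists of hormone response and prostate identity held 0 or 1 gene with a member each, too few to set against the background of 3.02%. Androgen response genes had 1 of 45 (2.22%), UAP1, an enzyme gene of amino sugar synthesis, whose member at chr1:162561601-162561800 lay 70 bp inside the start with an enzalutamide region 150 bp and an OSU-ERb-12 region 200 bp away. Oestrogen response genes had 0 of 25, prostate lineage factors 0 of 18, nuclear receptors and coregulators 1 of 51 (1.96%, NR4A1), and luminal markers 1 of 14 (7.14%, MUC1, 486 bp upstream of the start). KLK3, TMPRSS2, FKBP5, HOXB13, FOXA1, MYC, ESR1 and ESR2 had no member, and among them FOXA1 and MYC had a combination region at an end that overlapped a single-agent region. Basal markers had 0 of 14, neuroendocrine markers 0 of 18, stromal and immune markers 0 of 20, and MAPK and PI3K signalling genes 0 of 43. NF-kB and inflammation genes had 1 of 24 (ICAM1), and interferon response genes 1 of 30 (ISG15).

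Among 27 families grouped by gene symbol, shares ranged from 0 to 10.0%. HOX genes had 4 of 40, but the count rests on 2 regions. One covered an end of HOXC11, and the other, at chr12:54016451-54016650, lay 238 bp from the annotated boundary that HOXC4, HOXC5 and HOXC6 have in common. RNA helicase genes had 4 of 54 (7.41%), with DDX4 and DDX54 nearest at 111 and 128 bp from the start. F-box protein genes had 4 of 63 (6.35%), mitochondrial ribosomal protein genes 4 of 77 (5.19%), led by MRPL3 with its start covered, and splicing factor genes 4 of 87 (4.60%), led by HNRNPU with its start covered and SF3B2 at 37 bp. Translation initiation factor genes had 3 of 56 (5.36%), all near the start: EIF2D, EIF2B3 and EIF2B4. Keratin genes had 3 of 55 (5.45%), KRT81, KRT73 and KRT74, which lie together on chromosome 12.

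The largest families were close to or under the background of 3.02%. ZNF genes had 13 of 517 (2.51%), with ZNF589 covered at its start, solute carriers 10 of 384 (2.60%), and TMEM genes 9 of 233 (3.86%). Cytosolic ribosomal protein genes had 2 of 87 (2.30%), RPL3 and RPL18, both inside the far end, although 42 of the 87 had an enzalutamide region at an end. Respiratory chain genes had 2 of 88, but these were ATP5MF and its read-through gene, with the same region at the same end. Proteasome genes had 1 of 50 (PSMD3). Olfactory receptor genes had 0 of 392, TRIM genes 0 of 77 and RNA polymerase subunit genes 0 of 33.

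Some members lay at the ends of several genes at once. This held for 88 of the 517 (17.0%), of which 4 were at the ends of 3 genes. In 34 of the 88 the nearest pair of ends were both starts, in 20 a start and a far end, in 10 both far ends, and in 24 a strand was missing. Closely facing starts included GLB1L and STK16, 35 bp apart, EXOSC7 and ZDHHC3, 70 bp apart, SCN11A and WDR48, 72 bp apart, and APTX and DNAJA1, 153 bp apart. These pairs were picked after their values were seen. By the rule for naming pairs, the closest included MYO15B and RECQL5, whose far ends lay 5 bp apart, and 6 pairs whose annotated ends coincide, such as ATP5MF with its read-through gene and HYAL3 with NAA80. For such pairs the 605 genes count the same end more than once.

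The 4 genes with 2 members were PRR12, PRRG2, RNF114 and STARD10. PRR12 and PRRG2 shared the same 2 regions at chr19:49590001-49590200 and chr19:49590601-49590800. RNF114, a ubiquitin ligase gene, had a region over its start at chr20:49936201-49936600 and a second 854 bp inside it. STARD10, a lipid transfer gene, had both of its regions at the far end.

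Many members had a single-agent region nearby without overlapping it. An enzalutamide region lay within 1 kb of 113 of the 517 (21.9%) and an OSU-ERb-12 region within 1 kb of 38 (7.35%). Either was within 1 kb of 134 (25.9%; exact 95% interval 22.2 to 29.9) and both of 17. Regions that touched with no base between them numbered 9 for enzalutamide, among them those at CCDC18, HNRNPU, CNST and FAM168A, and 2 for OSU-ERb-12, at ADAM17 and CYTH3. The median gap was 12250 bp to the nearest enzalutamide region and 27150 bp to the nearest OSU-ERb-12 region. The rule sets the lower bound of these gaps, and the enzalutamide list has more regions, so the gaps are a description.

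**Figure D4:**
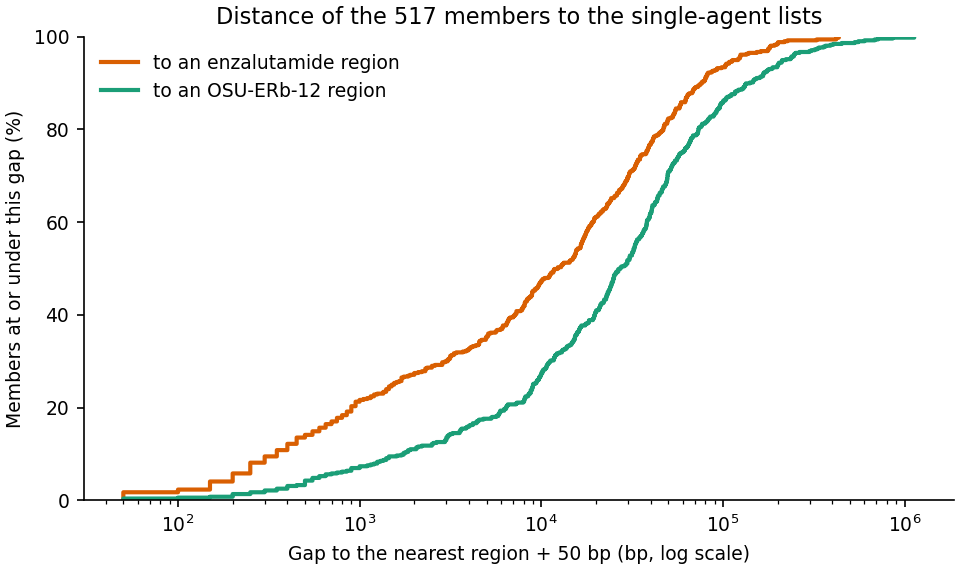
Cumulative percentage of the 517 members (y axis) by the gap to the nearest enzalutamide region and the nearest OSU-ERb-12 region (x axis, bp, log scale, with 50 bp added so that touching regions can be drawn). Within 1 kb the enzalutamide line has reached 21.9% and the OSU-ERb-12 line 7.35%.

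Single-agent regions were counted separately around members at starts and at far ends, without a test. Of the 301 start-side members 80 had an enzalutamide region within 1 kb (26.6%; 21.7 to 31.9) and 29 an OSU-ERb-12 region (9.63%), against 15 (13.2%; 7.56 to 20.8) and 3 (2.63%) of the 114 far-end members. Of the 605 genes, 192 (31.7%) had an enzalutamide region within 1 kb of an end, where 28.3% of all genes did. For OSU-ERb-12 the number was 60 (9.92%), where 7.88% of all genes did. No region of either single-agent list lay at the ends of 382 of the 605 genes (63.1%), against 67.9% of all protein-coding genes. None lay within the gene and 10 kb on either side for 117 (19.3%), against 31.8% of all.

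The members were spread over all chromosomes except Y and the share of protein-coding genes with a member was highest on chromosome 3, at 57 of 1066 (5.35%), against 3.02% of all. Chromosome 20 followed with 25 of 537 (4.66%) and chromosome 8 with 29 of 715 (4.06%). The lowest shares outside Y were 3 of 239 on chromosome 21 (1.26%), 5 of 338 on chromosome 13 (1.48%) and 16 of 1049 on chromosome 6 (1.53%). Chromosome 3 also held 471 of the 4698 combination-only regions, of which 9.34% were at gene ends. On the X chromosome 11 of only 24 combination-only regions were members (45.8%), and on chromosome 19, which is dense in genes, 38 of 167 (22.8%).

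**Figure D5:**
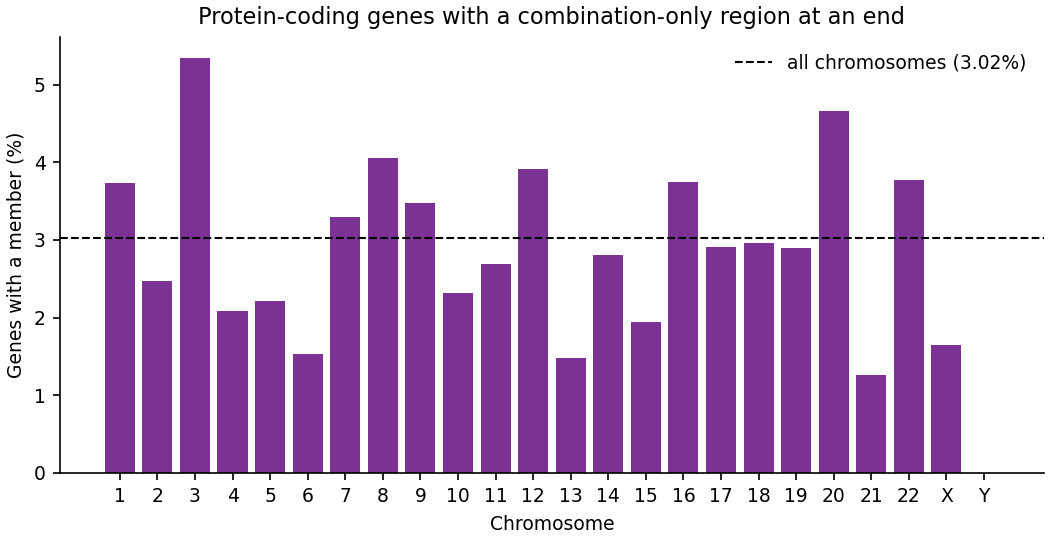
Percentage of protein-coding genes on each chromosome with a combination-only region within 1 kb of an end, with the share over all chromosomes (3.02%) as a dashed line. Chromosome 3 stands highest at 5.35% and chromosome 21 lowest of those with a member at 1.26%.

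In windows of 5 Mb the most members in any window was 9, and 97 members fell in the 15 windows with at least 5. On chromosome 12 from 50000001 to 55000000 the 9 members lay at 12 of 113 genes, among them NR4A1, the keratin genes KRT81, KRT74 and KRT73, and the HOXC genes. On chromosome 19 from 15000001 to 20000000 the 9 members included KLF2, JUND and the elongation factor gene ELL. On chromosome 3 from 50000001 to 55000000, 7 members lay at 10 of 85 genes (11.8%), including the hyaluronidase genes HYAL1, HYAL2 and HYAL3. In this window 35 combination-only regions were listed in all.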

How the data were processed

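ATAC-seq was made from 12 samples of 22Rv1 cells in 4 groups of 3, grown as biological triplicates per the labels' protocols. The authors separated nucleosome-free fragments with ATACSeqQC per the labels' protocols. Per the submitters' processing notes, FastQC and Trimmomatic were used with hg38. How regions were called, compared with vehicle and shifted for the transposase offset was not given in the sources used here. Deposited lists are headerless intervals whose score is always 0, so no stricter threshold could be applied. Each list was assigned to a treatment by the prefix it shares with sample titles, which is WT in the case of OSU-ERb-12.

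Overlaps, distances and shares were computed with Python 3.11.15, pandas 2.3.3 and numpy 2.4.6, and Fisher's exact tests and exact Clopper-Pearson 95% intervals with scipy 1.17.1. Adjustment used statsmodels 0.14.6, with a threshold of 0.05. Only-regions overlapped neither of the other 2 lists by 1 bp. Genes were the 20037 protein-coding genes of RefSeq GRCh38.p14 on 24 chromosomes, coordinates are 1-based, and strand and promoter windows came from the RefSeq promoter table. Intervals cover the counting of regions only, and sequencing depth is unknown. The region members, gene lists, families, motifs and tests were chosen with earlier results of these data known. Genes were named by a rule: genes with 2 members, list and family genes nearest to an end, the closest gene pairs, windows of largest overlap, regions at the 1 kb threshold, regions nearest to a single-agent region, the widest members, and a set of receptor and prostate genes. Some genes that the rule names are not reported here. The overlap and side calls were checked on simulated regions at long genes of known strand with no other gene end nearby. Ties, facing starts and missing strands were not covered by this check. No sequence of chromosome 8 was used.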

Additional observations from a re-analysis of the deposited data

How the results depend on the processing

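No paired analysis was possible because the lists hold no value per sample, and leaving out a replicate was not possible for the same reason. Of 57 recomputed values 46 stayed within 1.5 times the reported count, within the 95% interval of the reported share, or on the same side of the test's threshold. Immediate early counts of 4 (500 bp window) and 8 (5 kb window) against 6 are among these. With a 5 kb window the members numbered 1125 at 1421 genes, 23.9% of combination-only regions were at gene ends and 58.6% of the members were nearest to a start. With a 500 bp window these shares were 7.94% and 79.1%. When single-agent regions within 500 bp counted as shared, 9.56% of the remaining combination-only regions were at gene ends, and 3 immediate early genes had a member. A single-agent region lay within 500 bp of 17.6% of members and within 5 kb of 44.9%. The odds ratio for starts ranged from 0.331 to 0.488 against enzalutamide-only regions, with adjusted p at most 8.06e-06 (Fisher's exact test). The rule leaves out combination regions that overlap enzalutamide regions, which by itself lowers this ratio. Regions are not replicates, so the p-values describe the lists alone. Against OSU-ERb-12-only regions the odds ratio ranged from 1.16 to 2.35. Only the 5 kb window gave a value short of the threshold (1.16, Fisher's exact test, adjusted p = 0.0774). The cause was not tested. These ranges include regions of 200 bp only, an alternative chosen after seeing the data, as were the immediate early counts and the use of 1 window a gene, which gave 44.7% for CCAAT. Lists without scores or depth do not show whether a region missing from a single-agent list differed from the combination.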
